A study of Mus musculus with 6 samples.

Results

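The endocannabinoid system of the hippocampus was followed here through 8 genes, comprising the CB1 receptor gene Cnr1, its interacting protein Cnrip1, and the synthetic and degrading enzymes Dagla, Daglb, Mgll, Abhd6, Napepld and Faah. The members were every probe set annotated to a single one of these genes, which gave 15 of the 45037 probe sets and 8 of the 18193 genes on the array. The genes were chosen by name with their measured log2 differences between p300+/- and wild-type arrays, and the agreement of their probe sets, already known. Those values are therefore described and not tested. RNA came from the hippocampi of 3-month-old female mice, either heterozygous for a p300 deficiency (p300+/-) or wild-type littermates. All animals were on a C57BL/6 background, and the labels name no driver that would limit the deficiency to a cell type. Each of the 6 Affymetrix arrays read a pool of 4 animals, with 3 pools and 12 animals of each genotype. The sources used here do not say which part of the p300 gene is altered.

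CB1 is a G protein-coupled receptor that sits mainly on axon terminals and lowers transmitter release. In the hippocampus it is dense on the terminals of cholecystokinin interneurons and sparser on glutamatergic terminals. Its main brain ligand, 2-arachidonoylglycerol (2-AG), is made by diacylglycerol lipases in the postsynaptic neuron and travels backwards across the synapse. It is then broken down by monoacylglycerol lipase and ABHD6, while the other ligand, anandamide, is released from membrane precursors by NAPE-PLD and hydrolysed by FAAH.

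The deposited values are log2 intensities from which each probe set's own median over the 6 arrays was subtracted. A value of 0 is thus that probe set's middle value, and values of different genes cannot be compared as levels. The fine binary steps of the numbers did leave a coarse level class, in log2 intensity units. A probe set with arrays on both sides of a class limit falls in the lower class. Brighter and dimmer below refer only to these classes. Of the 15 member probe sets, 10 were in the class from 8 to 16, 5 in that from 4 to 8 and 0 in that from 2 to 4. In all, 28.1% of probe sets were in the highest class. No source names the log base, which was taken as 2, and each fold below depends on that.

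Ep300, the gene of p300, was lower in the p300+/- pools. Its probe set 1434765_at was at -0.26, -0.22 and -0.50 in p300+/- 1 to 3, against 0.22, 0.38 and 0.40 in wild-type 1 to 3. The log2 difference was -0.66 ± 0.13 (SE, n = 3 per genotype), or 0.634 times wild-type, and the genotypes did not overlap. The 4 probe sets of Crebbp, the closest relative, differed by -0.034, -0.035, -0.51 and -0.13, each with an interval that included 0.

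Across the array 0 of 45037 probe sets passed an adjusted p of 0.05 (limma), which is 0%, and 550 (1.22%) had an unadjusted p under 0.05. The smallest adjusted p was 0.9999 (limma). p300+/- 3 and wild-type 2 stood apart together. Their deviations from their genotype means correlated at r = 0.65 over probe sets, and wild-type 2 had the widest spread of values (SD 0.331, against 0.182 to 0.290 in the other arrays). Choroid plexus markers (mean of 10 of 10 genes) ran from -0.087 to 0.39 in p300+/- pools, and in wild-type 1 to 3 they were at -0.18, -2.58 and 0.24. Ttr, their most abundant transcript, was at -2.47 in wild-type 2. Of the lists that check the tissue, 8 of 9 pyramidal, 12 of 16 interneuron and 3 of 6 dentate granule genes had a probe set in the class from 8 to 16. The 18S control was lowest in p300+/- 2 (-1.32) and wild-type 3 (-1.11), and lay between -0.19 and 0.57 in the other arrays. The 5′ minus 3′ difference of the beta-actin control, a sign of RNA integrity, was 0.12, -0.036 and 0.094 in p300+/- 1 to 3, against -0.045, -0.20 and -0.066 in wild-type 1 to 3, and the genotypes did not overlap. That of Gapdh was -0.017, 0.049 and 0.097 in p300+/- 1 to 3, against -0.055, -0.011 and -0.030 in wild-type 1 to 3, where p300+/- 1 lay within the wild-type range. The part of these features in the values below was not tested. In tissue RNA, fewer cells of a type and less RNA per cell cannot be told apart.

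Cnr1 differed in opposite directions in its 2 probe sets. Which part of the transcript each of them reads was not analysed here. The beta-actin 5′ minus 3′ difference given above separated the genotypes narrowly (-0.036 in p300+/- 2 against -0.045 in wild-type 1), and that of Gapdh did not. The part of either in the Cnr1 values was not tested. The dimmer, 1419425_at in the class from 4 to 8, was at 0.060, 0.43 and 0.036 in p300+/- 1 to 3, against -0.036, -0.53 and -0.52 in wild-type 1 to 3. All 3 p300+/- arrays lay above all 3 wild-type arrays, but wild-type 1 was only 0.072 below the lowest p300+/- array. The log2 difference was 0.54 ± 0.18 (SE, n = 3 per genotype; 95% interval 0.11 to 0.96), a ratio of 1.45. Of the 45037 probe sets, 341 had a larger absolute difference. This difference was known when the genes were proposed, and nothing is read from its rank. The brighter, 1434172_at in the class from 8 to 16, was at -0.45, 0.12 and -0.19 in p300+/- 1 to 3, against -0.086, 0.086 and 0.13 in wild-type 1 to 3. Here the genotypes overlapped, with p300+/- 1 lowest and p300+/- 2 within the wild-type range. The log2 difference was -0.22 ± 0.16 (SE; 95% interval -0.60 to 0.17), a ratio of 0.860.

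The disagreement extended to single arrays. The Cnr1 probe sets had the same sign in 2 of 6 arrays, and their values correlated at r = -0.31 (Spearman's rho = -0.31) over the 6 arrays. Their log2 differences between genotypes lay 0.75 apart. Among the 4695 genes read by exactly 2 probe sets the median gap was 0.13, and 4 genes had a larger gap than Cnr1. The median r of these 4695 genes was 0.31. A lower r than that of Cnr1 was held by 16.5% of them, Cnrip1 (-0.51) and Abhd6 (-0.73) included. Opposite signs as such were common, since the 2 probe sets of a gene had the same sign in 51.8% of these genes. The Cnr1 gap was known when the members were chosen, and nothing is read from its rank. The mean of both Cnr1 probe sets was -0.19, 0.27 and -0.079 in p300+/- 1 to 3, against -0.061, -0.22 and -0.19 in wild-type 1 to 3. These genotypes overlapped, and the mean differed by 0.16 ± 0.14 (SE; 95% interval -0.16 to 0.48). With every array left out in turn, 1419425_at stayed above 0 (0.41 to 0.70) and 1434172_at below 0 (-0.36 to -0.081). For 1419425_at this sign was fixed beforehand, since its genotypes did not overlap.

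**Figure D1:**
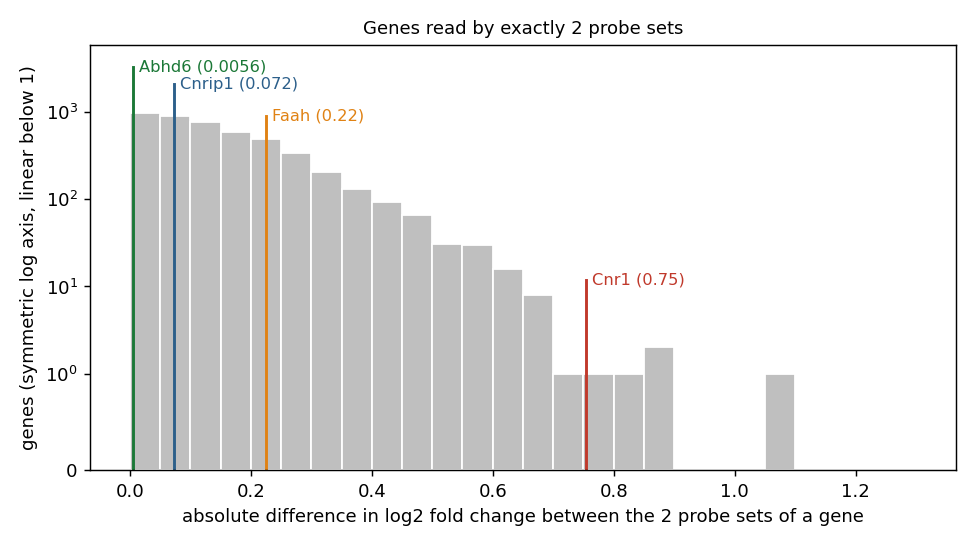
Genes with exactly 2 probe sets, by the absolute gap between the log2 fold changes (p300+/- minus wild-type) of their probe sets; bars count genes on a symmetric log axis, and lines mark members. Cnr1, at 0.75, lies in the sparse right tail, while Abhd6 (0.0056), Cnrip1 (0.072) and Faah (0.22) lie in the bulk of the 4695 genes. The gaps of the members were known when these were chosen.

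Cnr1 was the only member with a separated probe set. Of the 15 member probe sets, 1 had all p300+/- arrays above all wild-type arrays and 0 had them below, where 3.19% and 2.2% of all probe sets did so, 5.39% in either direction. This count used the contrast by which the genes were proposed, and nothing is read from it. The 95% interval included 0 for 14 of the 15 and left it out for 1, where 1.22% of all probe sets had an unadjusted p under 0.05 (limma). Nothing is read from this count either. Outside Cnr1, the 13 log2 differences ran from -0.070 to 0.23, and the widest interval, that of Cnrip1 1430302_at, reached from -0.71 to 0.90. The median over the 15 probe sets was 0.0059, against 0.0057 over all probe sets tested. Values were higher in p300+/- for 9 of 15, against 51.7% of all probe sets.

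**Figure D2:**
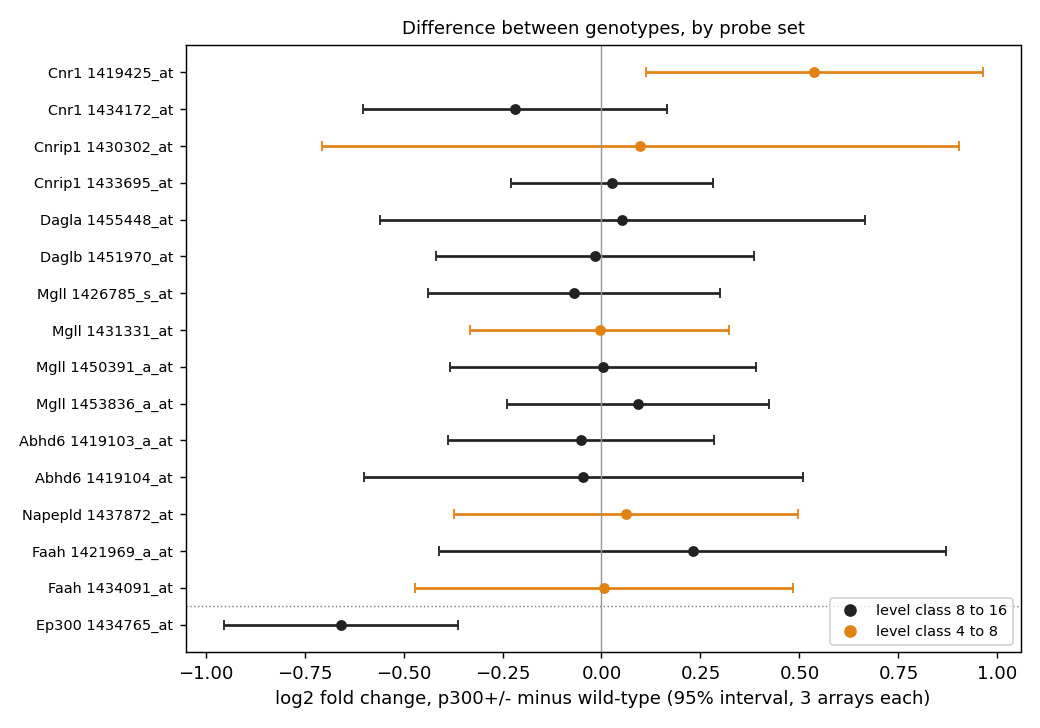
Log2 fold changes (p300+/- minus wild-type) of the 15 member probe sets and, below the dotted line, of Ep300; points are estimates and bars 95% intervals from 3 arrays per genotype, coloured by level class. Only Cnr1 1419425_at among the members has an interval (0.11 to 0.96) that leaves out 0, and Ep300 lies at -0.66. Of all probe sets, 1.22% had an unadjusted p under 0.05 (limma).

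Cnrip1, whose product binds the cytoplasmic tail of CB1, was also read by 2 probe sets that varied in different ways. The brighter, 1433695_at, was at -0.043, -0.0051 and 0.054 in p300+/- 1 to 3, against -0.12, 0.0051 and 0.041 in wild-type 1 to 3. It was the steadiest of the members, with a range of 0.17 over the 6 arrays, and 3.17% of all probe sets had a smaller one. Its log2 difference was 0.025 ± 0.11 (SE; 95% interval -0.23 to 0.28), or between 0.853 and 1.21 times wild-type. The dimmer, 1430302_at, was at 0.29, -0.073 and -0.67 in p300+/- 1 to 3, against 0.13, -0.95 and 0.073 in wild-type 1 to 3. It had the widest range of the members, 1.24, from p300+/- 1 down to wild-type 2 with p300+/- 3 next lowest, and its log2 difference was 0.098 ± 0.34 (SE).

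Dagla encodes the diacylglycerol lipase that makes most 2-AG at brain synapses. Its only probe set, 1455448_at, was at 0.18, 0.011 and -0.51 in p300+/- 1 to 3, against -0.011, -0.66 and 0.19 in wild-type 1 to 3. One array of each genotype, p300+/- 3 and wild-type 2, was thus low, and the other 4 lay between -0.011 and 0.19. The log2 difference was 0.053 ± 0.26 (SE; 95% interval -0.56 to 0.67). It moved to -0.20 without wild-type 2 and 0.26 without p300+/- 3, and with both left out it was 0.0063. Daglb, the second diacylglycerol lipase, was at 0.098, 0.031 and -0.11 in p300+/- 1 to 3, against -0.031, -0.26 and 0.36 in wild-type 1 to 3. The same arrays were its lowest, with a narrower spread, and the log2 difference was -0.016 ± 0.17 (SE).

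Mgll, the gene of monoacylglycerol lipase, which ends most 2-AG signalling at axon terminals, was read by 4 probe sets. Its log2 differences were all near 0, at -0.070, -0.0044, 0.0035 and 0.092, with SEs of 0.14 to 0.17. The mean of the 4 was at -0.0089, -0.23 and 0.19 in p300+/- 1 to 3, against 0.040, 0.028 and -0.13 in wild-type 1 to 3, so the wild-type arrays lay inside the p300+/- range. The 3 probe sets in the class from 8 to 16 followed each other closely, with r from 0.73 to 0.97 over the 6 arrays. In each of these p300+/- 2 was lowest and p300+/- 3 highest. The dimmer 1431331_at followed them less, at r from 0.37 to 0.44. One probe set, 1426785_s_at, is of a kind that can also bind other transcripts.

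Abhd6, a second 2-AG hydrolase that sits on the postsynaptic side, showed opposite array patterns in its 2 probe sets. 1419103_a_at was at 0.11, -0.024 and -0.25 in p300+/- 1 to 3, against 0.024, -0.18 and 0.15 in wild-type 1 to 3. 1419104_at was at -0.096, -0.22 and 0.49 in p300+/- 1 to 3, against -0.23, 0.45 and 0.096 in wild-type 1 to 3. p300+/- 3 and wild-type 2 were thus the lowest arrays of the first probe set and the highest of the second. Over the 6 arrays the probe sets correlated at r = -0.73 (Spearman's rho = -0.49), and over the other 4 arrays at r = 0.91. Their log2 differences between genotypes were -0.052 ± 0.14 and -0.046 ± 0.24 (SE), 0.0056 apart, although the arrays behind them were ordered differently.

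Napepld, which releases anandamide and its relatives from membrane phospholipids, was at 0.057, -0.17 and 0.11 in p300+/- 1 to 3, against -0.057, 0.27 and -0.40 in wild-type 1 to 3. The wild-type arrays enclosed the p300+/- arrays, and the log2 difference was 0.062 ± 0.19 (SE). Faah encodes the hydrolase of anandamide. Its probe set 1421969_a_at was at 0.32, -0.059 and -0.28 in p300+/- 1 to 3, against 0.066, -0.84 and 0.059 in wild-type 1 to 3. The second, 1434091_at, was at -0.015, 0.032 and -0.33 in p300+/- 1 to 3, against 0.015, -0.53 and 0.18 in wild-type 1 to 3. Both were lowest in wild-type 2 and next in p300+/- 3. They correlated at r = 0.87 (Spearman's rho = 0.49) over the 6 arrays, a relation that rests on those arrays, as r was -0.38 over the other 4. Their log2 differences were 0.23 ± 0.27 and 0.0059 ± 0.20 (SE). The first was -0.070 without wild-type 2 and 0.067 without wild-type 2 and p300+/- 3.

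**Figure D3:**
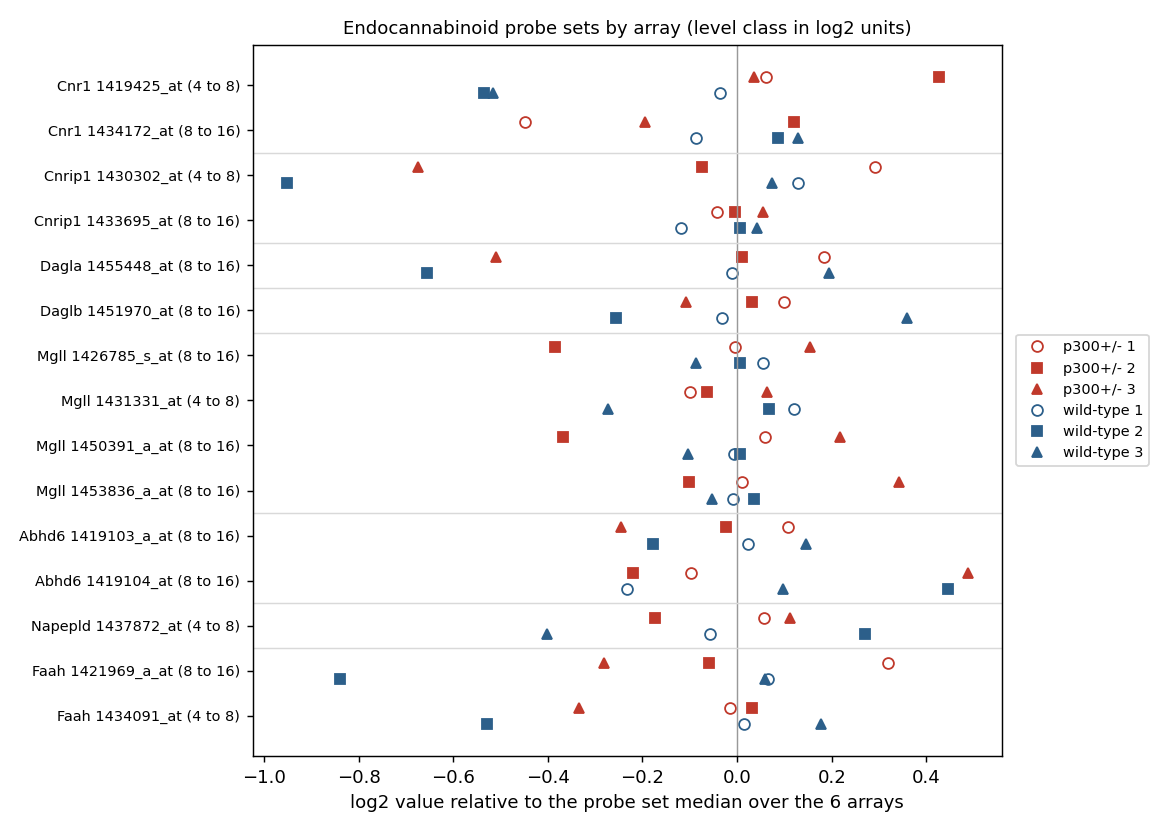
Values of the 15 member probe sets in each array, as log2 relative to the probe set median, with the 3 p300+/- pools in red above the 3 wild-type pools in blue and the level class in brackets. p300+/- 3 and wild-type 2 are the lowest arrays for Cnrip1 1430302_at, Dagla, Daglb, Faah and Abhd6 1419103_a_at and the highest for Abhd6 1419104_at, Mgll 1453836_a_at and Napepld.

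The split between p300+/- 3 with wild-type 2 and the other arrays ran through several members. In 6 of 15 member probe sets these were the 2 lowest arrays, where this held for 15.8% of all probe sets. In 3 of 15, namely Mgll 1453836_a_at, Abhd6 1419104_at and Napepld, they were the 2 highest, against 21.4% of all. The 6 low ones belonged to Cnrip1 (1430302_at), Dagla, Daglb, Abhd6 (1419103_a_at) and both probe sets of Faah. The mean of the markers of pyramidal neurons, in which Dagla and Faah are known to be expressed, was low in the same arrays. The mean of 9 of 9 pyramidal genes was 0.030, -0.025 and -0.31 in p300+/- 1 to 3, against 0.063, -0.64 and 0.15 in wild-type 1 to 3. In 5 of these 9 genes the same arrays were the 2 lowest, and in 1 they were the 2 highest. The mean of 6 of 6 dentate granule genes was lowest in p300+/- 3 (-0.44) and next in wild-type 2 (-0.098), but these were the 2 lowest arrays in only 3 of the 6 genes, and Trpc6 was highest in wild-type 2 (0.39). The mean of 8 of 8 microglia markers was instead highest there, at 0.25 in p300+/- 3 and 0.14 in wild-type 2, with the other arrays from -0.13 to -0.0079. These were the 2 highest arrays in 5 of the 8 genes, whereas Cx3cr1 was lowest there, at -0.82 in p300+/- 3 and -0.65 in wild-type 2. The part of these markers in the members' values was not tested.

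Interneuron markers varied among themselves across the arrays. The mean of 16 of 18 listed genes was 0.026, -0.013 and 0.23 in p300+/- 1 to 3, against -0.012, 0.038 and -0.10 in wild-type 1 to 3. Its highest array was p300+/- 3, where Vip (0.88), Sncg (0.70) and Pvalb (0.66) were high. In wild-type 2 these were at 0.76, 0.28 and 0.74. p300+/- 3 and wild-type 2 were the 2 highest arrays in 8 of the 16 genes, against 21.4% of all probe sets. They were the 2 lowest in 2 of the 16, against 15.8%. The marker genes were read by the mean of their probe sets, whereas both shares are over single probe sets. Gad1 and Gad2, the GABA-synthesizing enzymes, were instead highest in p300+/- 2 (0.39 and 0.51) and lowest in wild-type 2 (-0.27 and -0.48), the arrays in which Cnr1 1419425_at was also highest and lowest. In wild-type 3, however, that probe set was at -0.52 while Gad1 was at 0.17 and Gad2 at -0.094. Slc32a1 was highest in p300+/- 3 (0.28). Cck was highest in p300+/- 1 (0.18) and lowest in wild-type 3 (-0.22). The part of these markers in the Cnr1 values was not tested, and these single genes were picked after their values were seen. Cortex and striatum markers (5 of 6 listed), regions that are rich in Cnr1, ranged from -0.23 to 0.21 in p300+/- and from -0.16 to 0.14 in wild-type pools, and 0 of the 5 had a probe set in the highest level class. Among the remaining lists, astrocyte markers (8 of 8) ran from -0.041 to 0.11 in p300+/- and from -0.030 to 0.035 in wild-type pools. Oligodendrocyte markers (6 of 7) ran from -0.042 to 0.10 in p300+/- and from -0.23 to -0.0014 in wild-type pools, with wild-type 2 lowest. Vascular markers (6 of 6) were highest in p300+/- 2, at 0.21, and lowest in wild-type 2, at -0.17. Thalamus markers (5 of 5) were highest in p300+/- 3 and ran from -0.10 to 0.26 in p300+/- and from -0.076 to -0.024 in wild-type pools. Blood markers (3 of 4) were highest in p300+/- 3, at 0.47, and lowest in wild-type 3, at -0.17. Their part in the members' values was not tested.

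**Figure D4:**
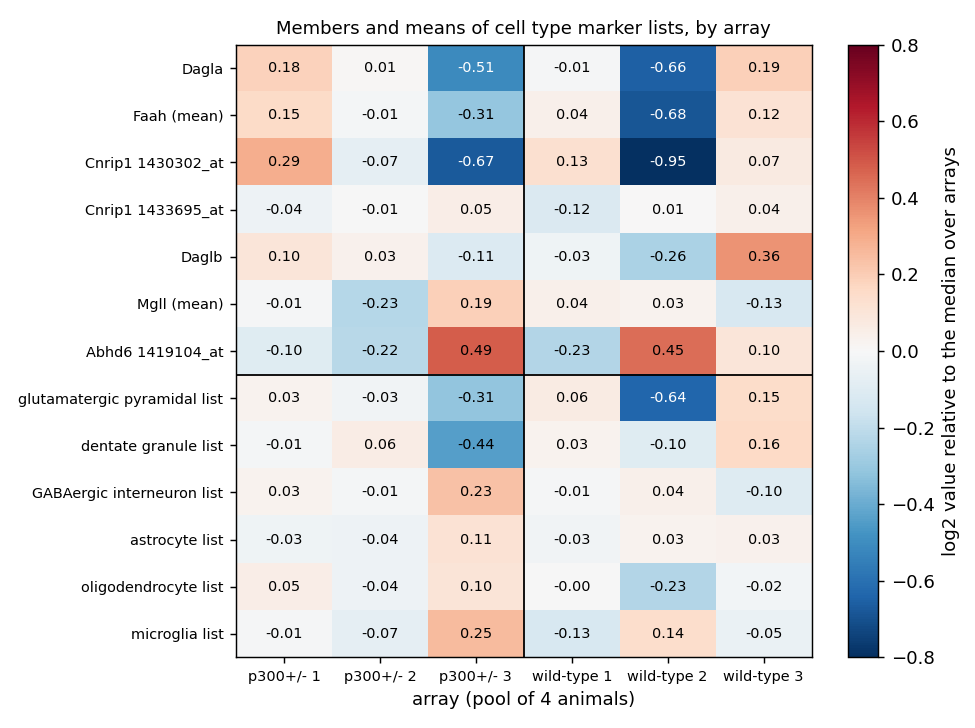
Values of selected members (top rows) and means of cell type marker lists (bottom rows) in the 6 arrays, as log2 relative to the median over arrays, with p300+/- pools left of the line and wild-type pools right of it. Dagla, Faah and Cnrip1 1430302_at share their low values in p300+/- 3 and wild-type 2 with the pyramidal list, while Cnrip1 1433695_at is flat and Abhd6 1419104_at is high there.

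The start-site regions of 3 members are shown, because p300 is a coactivator of CREB, which binds the cAMP response element (CRE). They are the receptor gene and 2 genes with the shared low arrays, Faah and, in its probe set 1430302_at only, Cnrip1. The sequences are RefSeq's on GRCm38.p6, as the 250 bases before an annotated start, on the gene's strand and 5′ to 3′. Capitals mark any of the searched motifs on either strand, namely the CRE (TGACGTCA), its half-site (TGACG or CGTCA, also part of the CRE), the GC box (GGGCGG or CCGCCC), the CCAAT box (CCAAT or ATTGG) and the TATA box (TATAAA or TTTATA). Cnr1 has 3 annotated starts in this table and the first is shown, at chr4:33924014-33924263 (plus strand). The Faah region is chr4:116017925-116018174 (minus strand) and that of Cnrip1 is chr11:17051609-17051858 (plus strand).
Cnr1: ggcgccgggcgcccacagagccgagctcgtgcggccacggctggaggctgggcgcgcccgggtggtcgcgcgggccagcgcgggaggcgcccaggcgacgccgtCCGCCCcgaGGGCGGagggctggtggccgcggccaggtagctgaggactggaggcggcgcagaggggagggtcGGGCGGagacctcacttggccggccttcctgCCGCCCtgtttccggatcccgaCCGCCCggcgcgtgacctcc
Faah: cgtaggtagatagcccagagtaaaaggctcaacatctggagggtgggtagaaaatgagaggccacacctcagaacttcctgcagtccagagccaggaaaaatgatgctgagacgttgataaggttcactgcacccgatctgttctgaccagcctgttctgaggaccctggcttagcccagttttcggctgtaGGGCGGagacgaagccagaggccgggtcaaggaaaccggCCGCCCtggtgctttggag
Cnrip1: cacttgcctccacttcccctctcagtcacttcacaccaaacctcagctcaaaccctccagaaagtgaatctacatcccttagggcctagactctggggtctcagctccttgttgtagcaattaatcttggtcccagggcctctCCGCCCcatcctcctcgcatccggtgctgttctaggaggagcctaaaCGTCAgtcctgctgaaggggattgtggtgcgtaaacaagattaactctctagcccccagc
The Cnr1 region shown held 5 GC boxes, that of Faah 2 and that of Cnrip1 1, beside a single CRE half-site in Cnrip1. The Cnr1 regions not shown, at chr4:33924394-33924643 and chr4:33926130-33926379, held 0 GC boxes each. Over the 11 regions of the 7 members in the table, 0 held a full CRE, 1 a half-site, 5 a GC box, 1 a CCAAT box and 0 a TATA box. The Abhd6 regions overlap each other. Among all 32851 such regions 1.55% held a full CRE, 17.8% a half-site, 32.7% a GC box, 33.8% a CCAAT box and 12.4% a TATA box. Dagla is not among these 7 members. These matches describe letters in a window and say nothing of binding.

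Other genes of the pathway were taken as a list of 38, of which 35 were measured, each by the mean of its probe sets. None of them passed the fit over gene means in either direction, as 0 of 18193 genes did (0%; limma, adjusted p of 0.05), and 0 of the 35 had an unadjusted p under 0.05. Values were higher in p300+/- for 20 and lower for 15, against 57.6% higher over all genes. The median was 0.011, against 0.019 over all genes, and the genotypes were separated in 0 of the 35, against 4.72% of all genes.

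By role, the genes with the smallest p stayed within overlapping genotypes. Among other receptors for these lipids (4 of 6 measured), Gpr18 was at -0.035, 0.035 and 0.044 in p300+/- 1 to 3, against -0.35, 0.083 and -0.57 in wild-type 1 to 3, a difference of 0.29 ± 0.16 (SE). Cnr2, the CB2 receptor gene of immune cells, was in the lowest level class and differed by 0.038 ± 0.10. Among 8 genes of CB1 coupling and trafficking, Sgip1, whose product slows CB1 internalization, was at -0.17 ± 0.18 (SE). Gnao1, the G protein subunit most abundant in brain, was at 0.046 ± 0.13.

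Of 7 measured genes that drive the supply of the 2-AG precursor, 5 had higher and 2 lower values. Their log2 differences ran from -0.28 to 0.45, with a median of 0.14. Grm5, the glutamate receptor mGluR5, which triggers 2-AG release, was at -0.020, -0.071 and -0.46 in p300+/- 1 to 3, against 0.31, -0.16 and 0.13 in wild-type 1 to 3. The difference was -0.28 ± 0.16 (SE), with wild-type 2 below the higher p300+/- arrays. Among 7 genes of alternative N-acylethanolamine synthesis, the phosphodiesterase gene Gdpd3 was at -0.25 ± 0.15 (SE). Of 5 genes for other hydrolases and oxidation, Abhd12, a further 2-AG hydrolase, was at 0.17 ± 0.12 (SE). Among 4 carriers, Scp2 was at -0.10 ± 0.21 (SE). Fabp7, a fatty acid binding protein of astrocytes and precursors that was picked after its values were seen, stood at 0.81 in p300+/- 3 and 0.95 in wild-type 2, with the other arrays from -0.16 to 0.033.

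The genes most like Cnr1 over the 6 arrays, by Pearson's r with the mean of its 2 probe sets among 18185 genes, were Aacs (r = 0.98), Zdhhc15 (0.98), Mtus1 (0.97), Lin7c (0.97) and Shoc2 (0.97). The least like were C4bp-ps1 (-0.99), Gdpd3 (-0.98) and Spx (-0.98). These are the extremes of a ranking of 18185 genes over only 6 arrays, and nothing is read from their size. In the 5 most alike p300+/- 2 was the highest array, from 0.099 in Aacs to 0.66 in Lin7c, and in the other 3 it was the lowest. The mean joins 2 probe sets that disagree, and its highest array is p300+/- 2 as well. The log2 differences of the 5 genes ran from 0.053 to 0.20 with intervals that included 0.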

How the data were processed

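Total RNA of hippocampi was hybridized to Affymetrix Mouse Genome 430 2.0 arrays, 1 per pool of 4 animals, per the labels' protocols. The deposited log2 values were made by the authors in GeneSpring GX, per the labels' protocols. For its version, the summarization of probes and any filter, the sources used here give nothing. Each probe set's median over the 6 arrays was 0 within 5e-07, and the base of 2 is an assumption. Level classes were read from the binary grid of the values, a step tested on simulated data. The simulated probe sets lay wholly inside a class, so those that cross a class limit were not tested.

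Of 45101 probe sets, 64 controls were left out and 45037 tested. Symbols came from the platform annotation, updated by gene identifier to RefSeq (GRCm38.p6), and 34945 probe sets had a single gene, 932 several and 9160 none. limma 3.58.1 in R 4.3.3 (lmFit, eBayes) compared p300+/- minus wild-type over all 6 arrays without covariates, two-sided, with Benjamini-Hochberg adjustment over all probe sets and a threshold of 0.05. The fit was tested on simulated data. SEs, intervals and fold changes of members come from this fit. The number of arrays limits the precision. Pools were independent biological replicates, per the labels' protocols. An exact permutation test of 3 against 3 arrays cannot go below p = 0.1.

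The members, pathway genes and marker lists were chosen with earlier results of these data known. The genes named were all member, Ep300 and Crebbp probe sets, the gene with the smallest p in each pathway role, the 5 most and 3 least like Cnr1, and marker list means; Fabp7, Cnr2, Gnao1 and single marker genes were added after their values were seen. Figures used matplotlib 3.10.9. Alternatives are given in the closing section.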

Additional observations from a re-analysis of the deposited data

How the results depend on the processing

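Probe sets past the threshold stayed at 0 under all 15 alternatives tried (quantile normalization, median centring, robust eBayes with a trend, weights per array, the replicate block, each array left out, p300+/- 3 and wild-type 2 left out together, only the upper level classes, without probe sets that can bind several transcripts, and a threshold of 0.1). The smallest adjusted p ran from 0.974 to 0.99998 (limma), and 388 to 1632 probe sets had an unadjusted p under 0.05. With the replicate block 0 passed and 604 had an unadjusted p under 0.05; in this balanced design the block cannot change a difference, and that of Cnr1 was 0.16. The shared numbers were not taken as pairs, since deviations of same-numbered pools correlated at 0.61, -0.23 and -0.47 over probe sets, and p300+/- 3 correlated best with wild-type 2 (0.65) and p300+/- 2 with wild-type 3 (0.37). The mean Cnr1 difference moved to 0.54 with its first probe set alone and to -0.22 with probe sets of the class from 8 to 16 alone, a choice made after seeing the data. With single arrays left out it ran from 0.023 to 0.26. The median over members ran from -0.063 to 0.064 with single arrays left out and was 0.057 as a median over genes. Of 5 genes with several probe sets, 3 had a single sign in all of them, against 0 with array weights, 1 without probe sets that can bind several transcripts (2 genes left) and 0 to 2 with single arrays left out. The cause of these moves was not tested. The pathway median ran from -0.014 to 0.043. Of the 15 member probe sets, the 13 outside Cnr1 changed sign under 1 to 6 alternatives each, and the 2 of Cnr1 under 0 of 14. Robust eBayes with a trend, the replicate block and the filters of probe sets cannot change the difference of a probe set. For Cnr1 1419425_at, whose genotypes did not overlap, leaving arrays out or weighting them cannot change the sign either. The differences were known when the genes were chosen, and nothing is read from these counts. Levels, and with them a signal over background, cannot be had from centred values.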
